A study of Mus musculus with 10 samples.

Results

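Wnt, BMP, TGF-beta and FGF signalling genes were examined in the forebrain of newborn mice (postnatal day 0) that lack both Elavl3 and Elavl4, a pair of RNA-binding proteins of neurons. The members are the genes whose symbol starts with Wnt, Bmp, Fgf (each followed by a digit), Fzd, Sfrp, Dkk, Bmpr, Gdf, Smad or Tgfb, on probe sets that carry exactly 1 symbol, with the FGF receptor genes left out. This gave 65 members of 13534 genes with 1 symbol. Where a gene had several probe sets, the brightest one stood for it, which applied to 5 members. No Dkk gene was among the members. The study used exon arrays on total RNA of dissected forebrain, with 1 array for each of 10 animals. One group held 5 wild-type animals and the other held 5 animals of genotype Elavl3-/-;Elavl4-/-, called double knockout here. Every pup came from mixed C57BL/6 and CD-1 stock. The series describes littermate pairs of the genotypes, and no label says which pups are littermates. Replicates are separate animals.

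Wnt proteins are secreted ligands that bind Frizzled receptors, and in the developing forebrain they leave the cortical hem and the ventricular zone to set regional identity and progenitor division. BMP, GDF and TGF-beta ligands bind pairs of serine/threonine kinase receptors, which phosphorylate Smad proteins that then enter the nucleus. FGF ligands bind receptor tyrosine kinases and pattern the front of the forebrain. In the newborn brain, several of these ligands also come from the meninges, the choroid plexus and blood vessels.

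The values are log2 array signals as deposited, and a difference is the double knockout mean minus the wild-type mean on that scale. Signal depends on the probes, so values of different genes are not compared as abundances. The targeted genes were far lower in the double knockout, Elavl3 by -5.08 and Elavl4 by -1.32 log2, with limma's adjusted p of 3.15e-05 and 0.0130 over all 65529 probe sets. Signals ran from 1.94 to 13.03. Wild-type replicate 4 stood apart, correlating with the other arrays at 0.933 to 0.946 against 0.958 to 0.974 among the rest, and had the narrowest spread of signal (SD 1.72 against 1.77 to 1.82). Taste and vomeronasal receptor genes, 104 of them that the brain is not known to use, served to mark dim signal. Their mean deviation was 0.14 in wild-type replicate 4 and -0.06 to 0.02 elsewhere. The label of forebrain was checked against 10 markers of its neurons. All 8 measured ones exceeded the dim level of 5.74, the 95th percentile of those receptors. Of 3 measured midbrain and hindbrain markers 2 did so as well, Pax2 at 6.09 and Hoxa4 at 5.81, and Hoxa2, at 3.73, did not.

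No member passed the test. Across the array, limma with Benjamini-Hochberg adjustment called 5 of 65529 probe sets, or 0.00763%, all lower in the double knockout, and 0 of the 65 members. Among all genes with 1 symbol it called 2, or 0.0148%. In tissue RNA, fewer cells of a type and less RNA per cell cannot be told apart. The differences of the members were small, between -0.34 for the receptor Fzd10 and 0.13 for the receptor Bmpr1a and the transducer Smad2. At an unadjusted p under 0.05, 2 of 65 members were lower and 0 higher, against 1.54% and 0.598% of all genes with 1 symbol. The 2 were Wnt4 and Fzd10. A fit restricted to probe sets with 1 symbol called 3 of 15419, or 0.0195%, and 0 members, with a lowest adjusted p of 0.811 among them. In that fit 6 members were lower at an unadjusted p under 0.05 and 0 higher, against 3.95% and 1.24% of genes. The 6 were Wnt4, Fzd10, Tgfb1i1, Bmp7, Wnt2 and Fgf1. Exact permutation p-values given below are for single genes and are not adjusted over the members. The intervals were narrow, with the 95% interval of 63 of 65 members inside a 1.5-fold change and that of all 65 inside a 2-fold change. For all genes with 1 symbol, 91.1% lay inside 1.5-fold. The exceptions among members were Bmp4 and Fzd10.

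**Figure D1:**
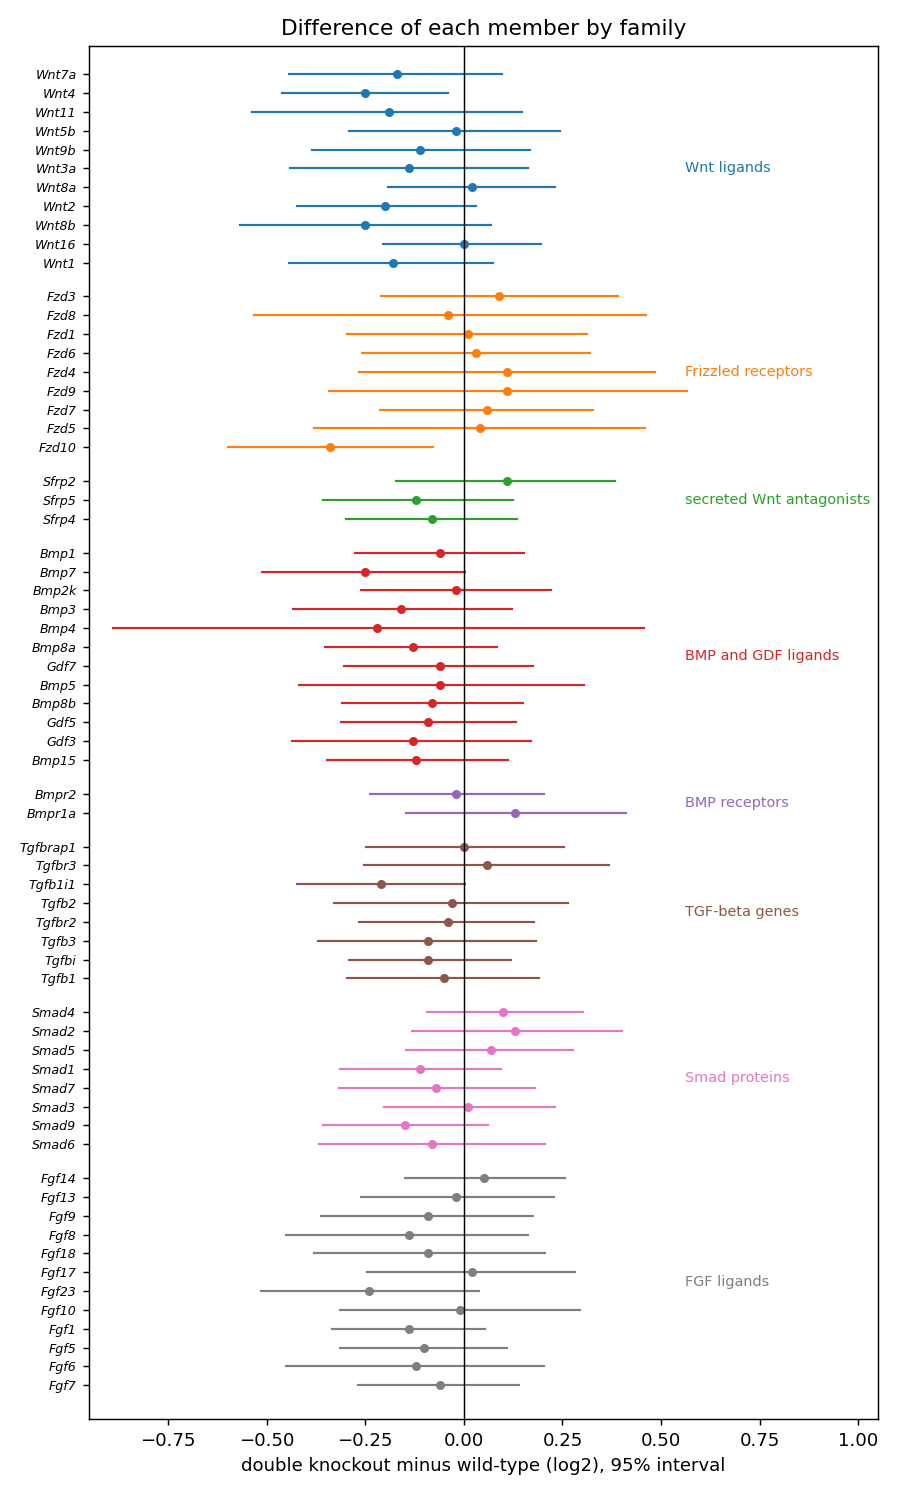
Difference between double knockout and wild-type (horizontal axis, log2) for all 65 members, with limma's 95% interval as a bar, grouped by family and ordered by signal within it. Only the intervals of Wnt4 and Fzd10 leave out 0, and neither gene passed after adjustment over all probe sets.

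The promoters of 3 members are shown because the results below turn on these genes: Wnt4 and Fzd10 had the smallest p-values of the members, and Tgfb2 varied with choroid plexus markers across animals. Each is the 250 bases before the gene's start in RefSeq's GRCm38.p6 table, read 5′ to 3′ on the gene's strand, at chr4:137277385-137277634 (plus strand) for Wnt4, chr5:128600856-128601105 (plus strand) for Fzd10 and chr1:186705990-186706239 (minus strand) for Tgfb2. Capitals mark GGCGCC, a palindrome found in BMP-responsive elements that Smad proteins bind.
Wnt4: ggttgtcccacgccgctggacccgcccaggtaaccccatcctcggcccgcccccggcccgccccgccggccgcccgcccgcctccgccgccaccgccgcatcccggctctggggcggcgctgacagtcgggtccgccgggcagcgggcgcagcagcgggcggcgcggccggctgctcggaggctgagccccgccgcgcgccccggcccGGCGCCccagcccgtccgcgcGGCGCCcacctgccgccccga
Fzd10: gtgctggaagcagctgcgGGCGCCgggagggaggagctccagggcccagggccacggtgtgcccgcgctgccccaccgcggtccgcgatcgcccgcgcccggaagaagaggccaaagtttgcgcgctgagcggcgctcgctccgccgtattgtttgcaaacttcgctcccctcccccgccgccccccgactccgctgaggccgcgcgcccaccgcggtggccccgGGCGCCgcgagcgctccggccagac
Tgfb2: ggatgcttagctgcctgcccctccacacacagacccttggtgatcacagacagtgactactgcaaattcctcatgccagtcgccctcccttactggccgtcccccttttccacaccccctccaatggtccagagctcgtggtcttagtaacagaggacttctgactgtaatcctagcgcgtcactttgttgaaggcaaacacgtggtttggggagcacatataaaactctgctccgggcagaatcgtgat

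The Wnt4 and Fzd10 windows are rich in G and C (85.2% and 76.4%), with 44 and 37 CpG dinucleotides, and each holds GGCGCC at 2 places. The Tgfb2 window has 53.6% G and C, 8 CpG dinucleotides and no GGCGCC. The table held windows for 46 of the 65 members, 55 windows in all. GGCGCC occurred in 25.5% of these and in 9.59% of all 32851 windows in the table. The median G and C content also differed, at 65.2% in member windows and 52.4% in all windows. The TCF/LEF core CTTTGAT, through which Wnt signals reach target genes, was searched on both strands and lay in 5.45% of member windows and 3.21% of all windows. It was found before Wnt11, Wnt5b and Fgf6. These matches describe letters in a window and do not show binding.

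Among the Wnt ligands, 10 of 11 had lower means in the double knockout and the median difference was -0.174, against -0.030 and 60.6% below 0 over all genes with 1 symbol. None passed. Wnt4, a ligand known from kidney and gonad formation, was at 7.42, 7.58, 7.55, 7.58 and 7.67 in wild-type replicates 1 to 5. In double knockout replicates 1 to 5 it was at 7.35, 7.44, 7.28, 7.18 and 7.30. The groups overlapped by 1 value, since double knockout replicate 2 exceeded wild-type replicate 1. The difference was -0.25 (SE 0.0960, n = 5 each, 95% interval -0.46 to -0.04), with limma's adjusted p = 0.789 and an exact two-sided permutation p of 0.0159. It stayed between -0.28 and -0.22 when single arrays were left out.

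Wild-type replicate 4 stood high across the Wnt ligands. It alone held the highest wild-type value in 9 of the 11, against 30.7% of all genes with 1 symbol, and the family's mean deviation was 0.33 there and -0.11 to 0.08 in the other 9 arrays. Without it the median of the family was -0.068 and 8 of 11 members lay below 0. Wnt7a, the brightest member and a ligand for progenitors and brain vessels, was at 7.73, 7.68, 7.78, 8.10 and 7.94 in wild-type animals. In the double knockout it was at 7.67, 7.58, 7.49, 7.94 and 7.68, so the groups overlapped, and the difference was -0.17 (adjusted p = 0.860). Wnt11, a ligand of cell movement, varied most in the family, reaching 8.04 in wild-type replicate 4 and 7.24 to 7.62 in the other wild-type animals, against 7.19 to 7.53 in the double knockout. Its difference of -0.19 became -0.07 without wild-type replicate 4. Wnt8b, a ligand of the cortical hem, had a difference of -0.25 like Wnt4, but with wider spread, 5.77 ± 0.27 for wild-type animals against 5.52 ± 0.15 (SD, n = 5 each, adjusted p = 0.842). Its second probe set differed by -0.11.

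Wnt3a, which the cortical hem needs to form the hippocampus, was at 6.58 ± 0.26 in wild-type and 6.44 ± 0.12 in the double knockout (difference -0.14, and -0.04 without wild-type replicate 4). Wnt2 and Wnt1 differed by -0.20 and -0.18, and neither was above the dim level. Wnt1, the ligand of the midbrain-hindbrain border, averaged 4.32 in wild-type and 4.14 in the double knockout. Wnt5b, Wnt8a and Wnt16 differed by 0.02 or less in either direction, and Wnt9b by -0.11. In all, 4 of the 11 Wnt ligands were not above the dim level, namely Wnt1, Wnt2, Wnt8b and Wnt16.

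Frizzled receptors, which receive the Wnt signal, had 7 of 9 values above 0 and a median of 0.040. That direction was not stable: after quantile normalization the median was -0.011 with 5 of 9 below 0, and without double knockout replicate 4 it was -0.014. Fzd10 and Fzd8 lay below 0, and Fzd10 was the only member whose groups did not overlap. It was at 5.75, 6.06, 5.83, 6.09 and 5.76 in wild-type animals and at 5.40, 5.71, 5.39, 5.67 and 5.63 in double knockout animals. The highest double knockout value, 5.71, lay just below the lowest wild-type value, 5.75. Groups fell apart in this direction for 1 of 65 members and for 0.754% of all genes with 1 symbol, and in the other direction for 0 members and 0.214% of genes. The difference was -0.34 (SE 0.118, n = 5 each, 95% interval -0.60 to -0.08), or 1.26-fold, with limma's adjusted p = 0.775. The exact permutation p was 0.00794, the smallest that 5 against 5 animals can give, and it is not adjusted for 65 members. Fzd10 averaged 5.73 over all animals, just under the dim level of 5.74, and did not count as above it. The wild-type values, from 5.75 upwards, lay above that level and the double knockout values, up to 5.71, below it. A signal so near the dim level limits what this probe set can show.

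Fzd3, needed for axon tracts of the forebrain, was the brightest Frizzled probe set, at 10.42 ± 0.21 in wild-type and 10.51 ± 0.19 in the double knockout (SD, n = 5 each). The difference of 0.09 had a 95% interval of -0.21 to 0.39 (adjusted p = 0.925). Fzd8 varied most between animals, from 7.46 to 8.69 in wild-type and from 7.76 to 8.43 in the double knockout, with the ranges overlapping throughout. Its brightest probe set differed by -0.04 and its second by 0.40 (adjusted p = 0.984 and 0.809), so the 2 disagreed in sign and neither passed. The second averaged 6.39, above the dim level, with a 95% interval of 0.007 to 0.793 and limma's unadjusted p of 0.0467. It does not enter the counts of members, which rest on the brightest probe set. Fzd4, the receptor for norrin in brain vessels, and Fzd9 each differed by 0.11. Fzd1, Fzd5, Fzd6 and Fzd7 differed by 0.01 to 0.06.

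Double knockout replicate 4 held the highest value of its group for 7 of the 9 Frizzled genes, and for 38.0% of all genes with 1 symbol. The residual SD of Frizzled genes had a median of 0.209, against 0.156 over all genes with 1 symbol. Within the family it ran from 0.159 to 0.393. The Sfrp proteins bind Wnt ligands outside the cell. Sfrp2 was at 7.94 ± 0.21 in wild-type and 8.05 ± 0.15 in the double knockout (difference 0.11, adjusted p = 0.904). Sfrp5 and Sfrp4 differed by -0.12 and -0.08.

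**Figure D2:**
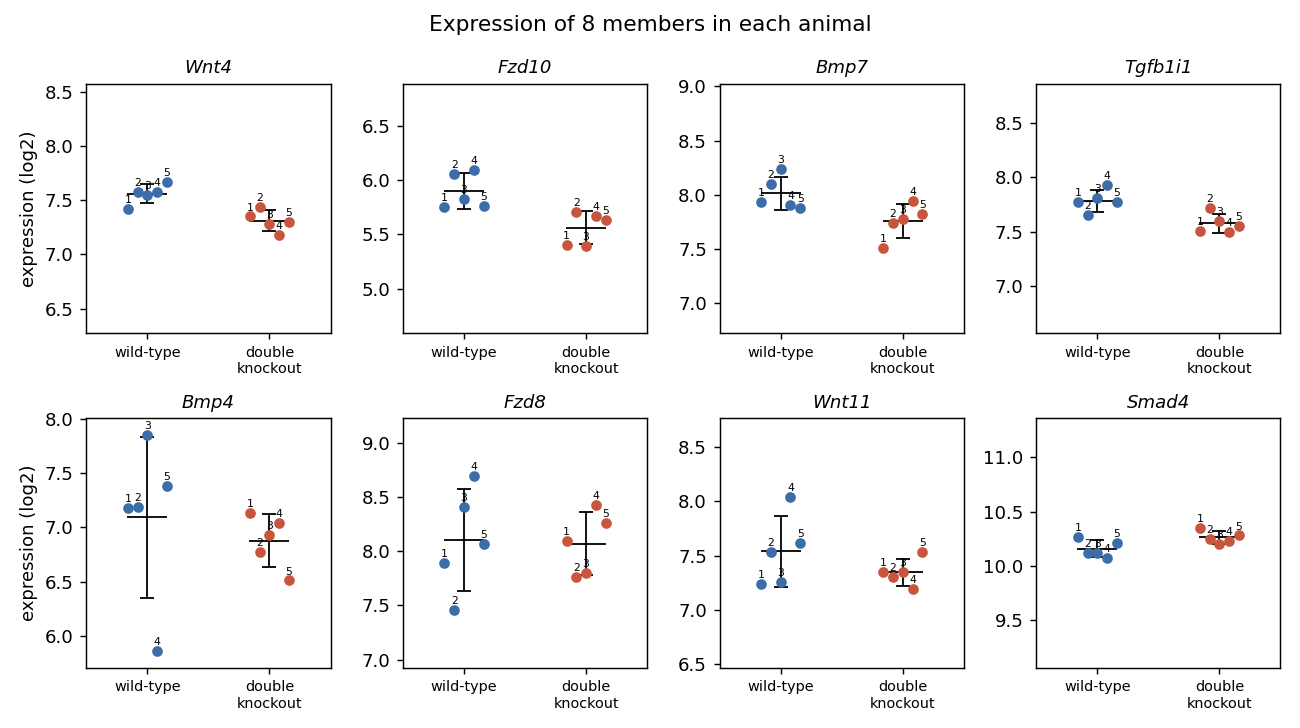
Expression (vertical axis, log2, the same span in each panel) of 8 members in each animal. Points are animals with their replicate number, wide bars the group mean and whiskers 1 SD. Fzd10 alone has groups that do not overlap, and in Bmp4 and Wnt11 wild-type replicate 4 lies farthest from the mean of its group.

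BMP and GDF genes all had lower means in the double knockout, 12 of 12, with a median of -0.104 and a range of -0.25 to -0.02. None of the 12 passed. Over all genes with 1 symbol 60.6% had lower means, and 66.3% of those with a mean signal of 8 or less. The 12 also lay below 0 after quantile normalization, after median centring and without wild-type replicate 4, and 10 of them did so without wild-type replicate 3. Bmp7, a ligand made by the meninges and the dorsal midline, had the largest difference. It was at 7.93, 8.10, 8.24, 7.91 and 7.88 in wild-type animals and at 7.51, 7.74, 7.78, 7.94 and 7.82 in double knockout animals. Only double knockout replicate 4 reached the wild-type range. The difference was -0.25 (SE 0.117, n = 5 each, 95% interval -0.51 to 0.003), with limma's adjusted p = 0.811 and an exact permutation p of 0.0317.

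Markers of the meninges also had lower means. All 6 measured markers of meninges and fibroblasts, of 10 listed, had lower means in the double knockout, with a median of -0.172 and none past the test. Their mean deviation was 0.03 to 0.13 in wild-type and -0.22 to 0.00 in double knockout animals, so the groups did not overlap. They were Foxc1, Foxd1, Col1a2, Col3a1, Slc13a4 and Aldh1a2, with mean signals of 7.15 to 8.74, all above the dim level. Their part in the Bmp7 difference was not tested.

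Bmp4, a ligand of the dorsal midline, varied more between animals than any other member, with a residual SD of 0.551 that exceeded that of 99.0% of all genes with 1 symbol. Wild-type values were 7.18, 7.19, 7.85, 5.86 and 7.38, and double knockout values 7.13, 6.77, 6.93, 7.04 and 6.51. Wild-type replicate 4 was the lowest of all 10 animals and wild-type replicate 3 the highest. The difference was -0.22 (95% interval -0.89 to 0.46, adjusted p = 0.920), and -0.52 without wild-type replicate 4. Without wild-type replicate 3 it was -0.03.

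The remaining BMP and GDF genes differed by less. Bmp3, an inhibitory member of the family, was at -0.16, Bmp8a at -0.13 and Bmp8b at -0.08. Bmp5, a ligand of the choroid plexus and dorsal midline, differed by -0.06 on its brightest probe set and by -0.08 on the other. Gdf7, a roof plate ligand, was at -0.06 and Gdf5 at -0.09. Gdf3 and Bmp15, known from the early embryo and the oocyte, were not above the dim level and differed by -0.13 and -0.12. A pair of genes share the name but not the role. Bmp1, a protease that trims procollagen and chordin, had the brightest probe set of the family at 9.59 and differed by -0.06, and the kinase Bmp2k differed by -0.02.

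The BMP receptors comprised 2 members. Bmpr1a, a type 1 receptor, was at 10.02, 10.03, 10.32, 9.88 and 9.92 in wild-type animals and at 10.05, 10.09, 9.98, 10.45 and 10.26 in double knockout animals. The ranges overlapped, and the difference of 0.13 had a 95% interval of -0.15 to 0.41 (adjusted p = 0.886). It ran from 0.06 without double knockout replicate 4 to 0.20 without wild-type replicate 3. Bmpr2, a type 2 receptor, differed by -0.02 on its brightest probe set and by 0.08 on the other.

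The TGF-beta genes comprised ligands, receptors and partners, 6 of 8 below 0 (60.6% of all genes with 1 symbol) with a median of -0.048. The ligands Tgfb1, Tgfb2 and Tgfb3 differed by -0.05, -0.03 and -0.09, and the receptors Tgfbr2 and Tgfbr3 by -0.04 and 0.06. Tgfb1i1, a focal adhesion protein also called Hic-5, was the lowest. It was at 7.77, 7.65, 7.81, 7.93 and 7.77 in wild-type animals and at 7.51, 7.72, 7.60, 7.50 and 7.55 in double knockout animals. One double knockout animal, replicate 2, exceeded the lowest wild-type value. The difference was -0.21 (SE 0.0967, 95% interval -0.42 to 0.002, n = 5 each), with limma's adjusted p = 0.811 and an exact permutation p of 0.0159. Tgfbi, a matrix protein, differed by -0.09 and Tgfbrap1, a receptor-associated protein, by 0.00.

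The Smad proteins carry BMP and TGF-beta signals into the nucleus, and 4 of 8 lay below 0 with a median of -0.027. Smad4, the partner shared by both branches, was among the steadiest members, with a residual SD of 0.0698. It was at 10.27, 10.12, 10.12, 10.07 and 10.21 in wild-type animals and at 10.35, 10.25, 10.20, 10.23 and 10.28 in double knockout animals. The ranges overlapped, and the difference was 0.10 (95% interval -0.09 to 0.30, adjusted p = 0.877). Of the TGF-beta branch, Smad2 differed by 0.13 and Smad3 by 0.01. The Smad2 difference ran from 0.07 to 0.18 when single arrays were left out, and was lowest without double knockout replicate 1 and, at 0.08, without wild-type replicate 4. Of the BMP branch, Smad5 differed by 0.07, Smad1 by -0.11 and Smad9 by -0.15. The 4 probe sets of Smad9 gave -0.15, 0.13, -0.40 and -0.13 in order of brightness, and none passed. The inhibitory Smad6 and Smad7, which BMP and TGF-beta signals switch on as feedback, were at -0.08 and -0.07.

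FGF genes had 10 of 12 values below 0 (60.6% of all genes with 1 symbol), a median of -0.091 and no call. The brightest were Fgf14 and Fgf13, relatives that stay inside neurons and bind sodium channels rather than FGF receptors. Fgf14 averaged 9.39 ± 0.07 for wild-type and 9.44 ± 0.09 for double knockout animals (SD, n = 5 per group), which differed by 0.05 (95% interval -0.15 to 0.26, adjusted p = 0.936). Fgf13 differed by -0.02. Fgf8, Fgf17 and Fgf18, related ligands that pattern the front of the forebrain and the midbrain, differed by -0.14, 0.02 and -0.09. Fgf9, a ligand for radial glia, was at 7.88 ± 0.15 and 7.79 ± 0.19, a difference of -0.09 (adjusted p = 0.913).

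Fgf23, a hormone of phosphate balance, had the largest difference of the family. It was at 6.00, 6.15, 5.83, 6.48 and 6.10 in wild-type and at 5.77, 5.94, 5.81, 5.89 and 5.96 in double knockout animals. The ranges overlapped and the difference was -0.24 (adjusted p = 0.835), or -0.15 without wild-type replicate 4. Fgf6, a muscle ligand with a dim probe set, was at 5.53 in that array and at 4.76 to 4.88 in the other 9 animals. Its difference of -0.12 became 0.02 without wild-type replicate 4. Together 54 of the 65 members exceeded the dim level and 11 did not. Fgf1, Fgf5, Fgf6 and Fgf7 were not above the dim level. Fgf1 differed by -0.14, Fgf5 by -0.10, Fgf7 by -0.06 and the brighter Fgf10 by -0.01.

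By role, 32 of 34 secreted ligands lay below 0 with a median of -0.113, and 4 of 13 receptors lay below 0 with a median of 0.040. This grouping across families was made after the values were seen, leaves out Bmp1, Bmp2k, Fgf13 and Fgf14, and received no test. The ligands were also the dimmer group, with a median signal of 6.36 against 7.79, and 10 of them were not above the dim level. Over all genes with 1 symbol 60.6% lay below 0. Signal and difference moved together there, with 66.3% below 0 and a median of -0.046 at a mean signal of 8 or less. Above 8 these were 46.2% and 0.008. Among members these medians were -0.089 for 54 dimmer and 0.054 for 11 brighter genes. Without wild-type replicate 4 the medians of all genes were -0.029 and -0.022. Then 61.8% of all genes lay below 0, as did 28 of 34 ligands (median -0.084) and 3 of 13 receptors (median 0.040). After quantile normalization 33 of 34 ligands and 67.6% of all genes with 1 symbol lay below 0. Of the receptors 7 of 13 did, with a median of -0.011, so the side on which the receptors fall depends on the scaling.

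**Figure D3:**
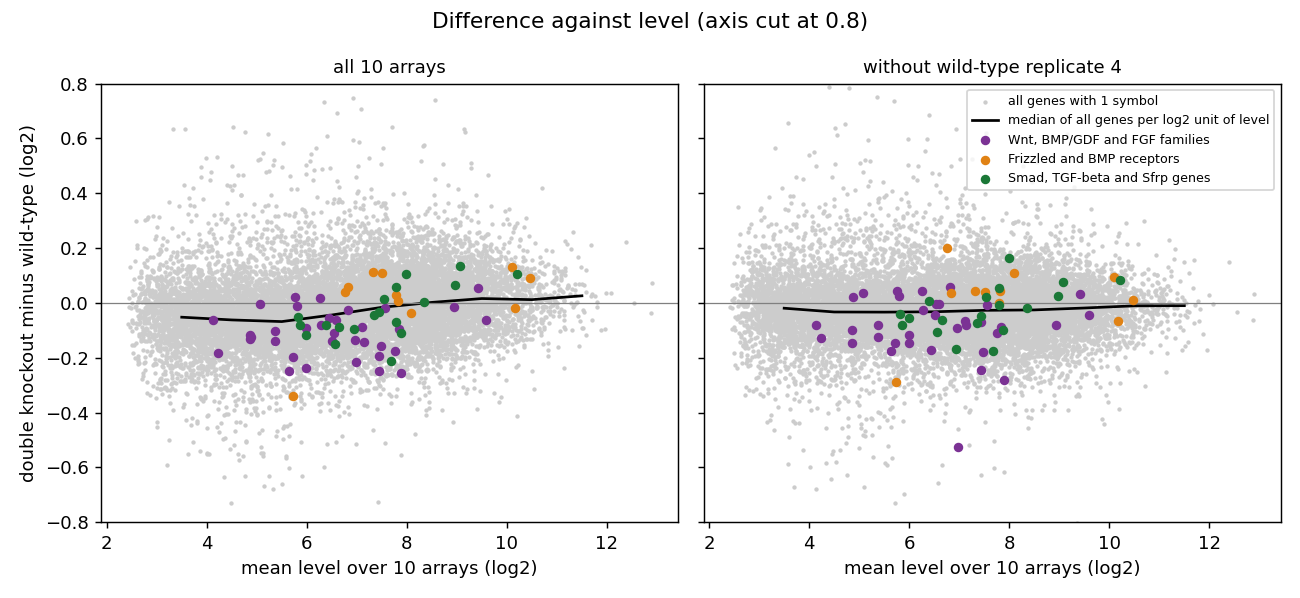
Difference (vertical axis, log2) against mean signal (horizontal axis, log2) for all genes with 1 symbol (grey), their median per log2 unit (line) and the members by kind of family (colours), with all 10 arrays and without wild-type replicate 4. The vertical axis is cut, which leaves out Elavl3, Elavl4 and other genes with large differences in either direction. Over all genes with 1 symbol the differences ran from -5.08 to 2.85. The line runs below 0 for dim genes and above it for bright ones with all arrays, and is flatter without wild-type replicate 4; Bmp4 drops to -0.52 there.

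Other genes of the same pathways gave no call either. Of 110 listed receptors, regulators and targets 74 were measured, and 0 passed in either direction. The rest had no probe set with exactly 1 symbol, and Axin2, Lef1, Id1, Dusp6 and Etv5 were among them. In each pathway the genes named first are the 3 of smallest p. Over all genes with 1 symbol 60.6% lay below 0. Among 24 Wnt pathway genes 11 lay below 0 (median 0.026). The Wnt-binding protein Frzb was at 6.83 ± 0.58 in wild-type and 6.32 ± 0.25 in the double knockout (SD, n = 5 per group). It differed by -0.51 with adjusted p = 0.831, by -0.66 without wild-type replicate 4 and by -0.31 without wild-type replicate 3. The Wnt-inactivating enzyme Notum differed by -0.20 and the Wnt co-receptor Ryk by 0.20. Among 31 genes of BMP and TGF-beta signalling 19 lay below 0 (median -0.022). There the BMP target Msx1 differed by -0.24 (adjusted p = 0.805), the BMP-binding protein Nbl1 by -0.21 and the growth inhibitor Mstn by 0.21. Leaving out single arrays put Nbl1 between -0.27 and -0.11 and Mstn between 0.11 and 0.27. Mstn averaged 5.02 and was not above the dim level. In the same list Msx2 differed by -0.03, and Id2, Id3 and Id4 by 0.07, 0.04 and 0.10. Among 19 FGF pathway genes 12 lay below 0 (median -0.066). The receptor Fgfr3 was at 7.92 to 8.03 in wild-type and 7.65 to 7.86 in double knockout animals, which did not overlap, with a difference of -0.19 (adjusted p = 0.823). Groups fell apart in this direction for 1 of the 74 pathway genes and for 0.754% of all genes with 1 symbol. In the other direction they did so for 0 pathway genes and 0.214% of all genes. The FGF-induced genes Etv4 and Spry4 differed by -0.21 and -0.15. Also in the FGF list, Spry1 and Spry2 differed by -0.11 and -0.05, and Spred1 by 0.14.

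Members were next compared with markers of the choroid plexus and the meninges, tissues known to make such ligands. For each tissue a score was formed as the mean deviation of its measured markers. The choroid plexus score, from Ttr, Kl, Kcnj13, Aqp1 and Otx2, ran from -1.09 to 0.79 in wild-type and from -0.84 to 0.76 in double knockout animals. It varied widely within both groups, most of all through Ttr, which ran from 5.91 to 11.59. All 5 markers had lower means in the double knockout (median -0.176, none past the test), and Kl was not above the dim level. Of 130 relations of 65 members with 2 scores over 10 animals, 3 passed at an adjusted p under 0.05 by Pearson's r and 1 by Spearman's rho, each with 100000 permutations. The relations were not computed for genes outside the members. Whether these counts differ from the share over all genes was therefore not tested.

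Tgfb2 rose with the choroid plexus score, with r = 0.862 (permutation p = 0.00084, adjusted p = 0.0364) and rho = 0.930 (permutation p = 0.00025, adjusted p = 0.0325) over 10 animals. Its values were 7.51, 7.50, 7.67, 7.39 and 7.22 in wild-type replicates 1 to 5, where the score was 0.79, 0.61, 0.64, -0.46 and -1.09. They were 7.17, 7.50, 7.41, 7.77 and 7.28 in the double knockout, where the score was -0.84, -0.03, 0.46, 0.76 and -0.83. The highest Tgfb2 value of each group came from an animal with a score above 0, while double knockout replicate 3, with a score of 0.46, was lower in Tgfb2 than replicate 2, with a score of -0.03. Without the 2 animals farthest from the median score, r was 0.757, and for deviations from the group means it was 0.862. Tgfb1 ran the other way, with r = -0.826 (permutation p = 0.00068, adjusted p = 0.0364) and rho = -0.842 (adjusted permutation p = 0.0991). Its values spanned 5.65 to 6.12, near the dim level, and r was -0.865 without the 2 farthest animals.

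Bmp7 rose with the meningeal score, with r = 0.892 (permutation p = 0.00038, adjusted p = 0.0364) and rho = 0.842 (permutation p = 0.00381, adjusted p = 0.0991). The r was 0.866 without the 2 farthest animals and 0.797 for deviations from the group means. The permutations ran across both genotypes, which the meningeal score separates. Its p-values therefore also take in the difference between the groups, and none was computed for the 0.797. Smad4 fell short, with r = -0.847 and an adjusted permutation p of 0.0617. For Fzd10 the relation to the meningeal score was 0.767 (adjusted permutation p = 0.180), and 0.395 for deviations from the group means. By such deviations Tgfbr3 and Fzd7 followed the meningeal score more closely than Bmp7, at 0.983 and 0.836. Over all 10 animals their r was 0.457 and 0.338 (adjusted permutation p = 0.555 and 0.697). Without the 2 farthest animals it was -0.359 and -0.132. The relation of Sfrp2 to the choroid plexus score was -0.815 (adjusted permutation p = 0.180). These relations rest on 10 animals and on scores from 5 and 6 markers, and they do not show which cells made the RNA.

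**Figure D4:**
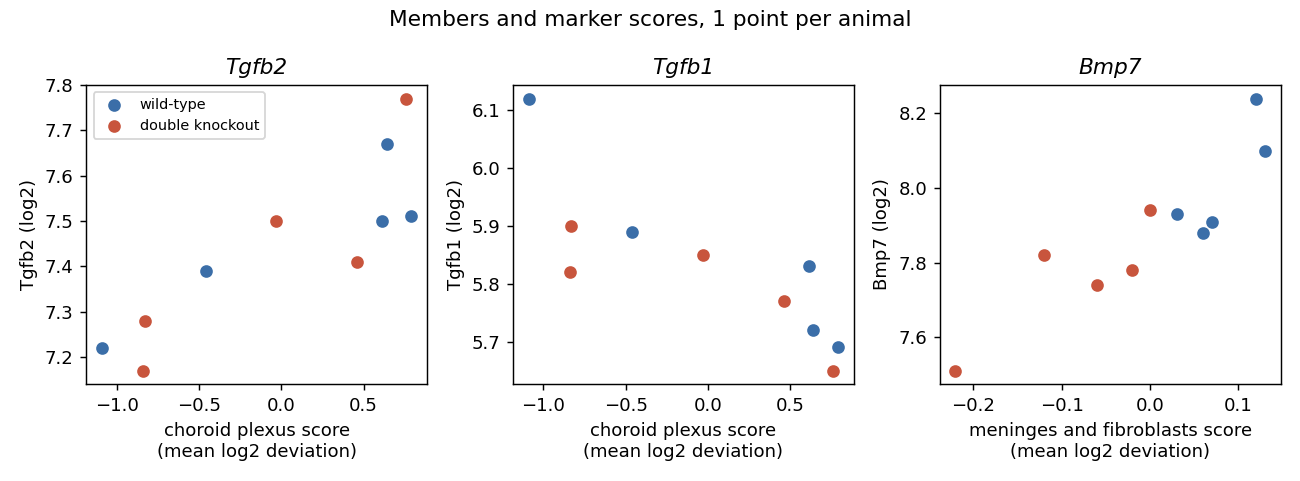
Signal of Tgfb2, Tgfb1 and Bmp7 (vertical axes, log2) against the marker score of the same animal (horizontal axes, mean log2 deviation), 1 point for each of 10 animals. Wild-type and double knockout animals mix along the choroid plexus score, whereas along the meningeal score all wild-type animals lie to the right of all double knockout animals.

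Markers of other cell types were scored in the same way. The scores of endothelial cells and pericytes (7 of 10 markers measured) ran from -0.11 to 0.20 in wild-type and from -0.14 to 0.11 in double knockout animals. Those of microglia and macrophages (7 of 8) ran from -0.14 to 0.23 and from -0.11 to 0.05. Those of astrocytes and radial glia (3 of 8) ran from -0.12 to 0.11 and from -0.11 to 0.04. In that list the overlap came from wild-type replicate 4 alone, at -0.12. The other wild-type animals, at 0.07 to 0.11, exceeded every double knockout animal, and 2 of the 3 markers had lower means in the double knockout. Scores of forebrain neurons ran from -0.09 to 0.11 and from -0.08 to 0.17, and those of midbrain and hindbrain (3 of 8) from -0.10 to 0.20 and from -0.11 to 0.04. With all 10 arrays the ranges of the 2 groups overlapped in each of these lists, and no marker passed the test.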

How the data were processed

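Deposited values are log2 signals from RMA, made by the authors in Expression Console (Affymetrix), as the submitters' processing notes list; they also name mm8. RMA corrects background, equalises arrays and merges probes. Software versions and summary level: not given in the sources used. Values carry 2 decimals. Arrays have no read depth, and 5 animals a group limit precision. All 10 columns matched a sample label. Symbols came from the platform annotation: 15419 of 65529 probe sets carry 1 symbol, 961 several and 49149 none. All 65 members matched RefSeq's GRCm38.p6 gene table, whose build differs from mm8 and gave names and promoters only.

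Genotypes were compared by limma 3.58.1 (lmFit, eBayes; R 4.3.3) with no covariate, two-sided, and adjusted over all 65529 probe sets at 0.05. Exact permutation tests used all 252 divisions of the arrays. Relations were computed in Python 3.11.15. Alternatives were quantile normalization, median centring, leaving out dim probe sets, keeping those with 1 symbol, trend and robust eBayes, array weights, pairing pups by nearest animal number, an unmoderated unequal-variance test, averaging all rows of a gene, a threshold of 0.1 and leaving out each array.

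Members and lists were chosen with earlier results of these data known. The named-gene rule took, in each of 8 families, members past the threshold, the 2 brightest, the largest rise, fall and residual SD, plus the 6 closest relations to a score and, in each pathway, the 3 smallest p. Wnt4 and other members outside it are given for completeness, chosen after their values were seen. Replicate numbers follow accession order.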

Additional observations from a re-analysis of the deposited data

Results flagged for a closer look

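The 65 members and both targeted genes gave 134 groups of 5 animals. In each group the highest and lowest animal's distance from its neighbour, as a share of the span of all 5, was held against Dixon's limit of 0.71. Chance alone marks about 5% of such groups, and 8 values were marked, a number near that share. Of these, 3 belonged to wild-type replicate 4: Bmpr2 at 9.98 (others 10.19 to 10.27), Fgf6 at 5.53 (others 4.76 to 4.88) and Wnt9b at 7.01 (others 6.44 to 6.54). In double knockout replicate 4, the kinase Bmp2k stood at 7.85 (others 7.47 to 7.50) and the ligand Fgf18 at 7.46 (others 6.89 to 7.03). Bmp3 was at 7.59 in double knockout replicate 1 (others 7.30 to 7.38). Wild-type replicate 3 was high in Tgfbrap1, at 8.59 (others 8.26 to 8.33), and low in Elavl3, at 10.52 (others 11.16 to 11.39). No cause was tested.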

How the results depend on the processing

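By limma and by the unmoderated test, 0 members passed under each of the 10 other settings and the 10 omissions of 1 array, with a lowest adjusted p of 0.566. The median difference over members, -0.068, ran from -0.090 to -0.049 over the omissions. Of 251 values of the 28 named members under other settings, 245 kept their direction and side of the threshold and 6 turned: Tgfbrap1 to -0.03 with quantile normalization, -0.004 with median centring and -0.01 with array weights, Fzd8 to 0.10 with array weights and 0.18 as the mean of its rows, and Bmpr2 to 0.03 as the mean of its rows. Without single arrays 10 of the 28 turned. Their ranges were -0.07 to 0.02 for Bmpr2, -0.08 to 0.04 for Fgf13, -0.17 to 0.02 for Fgf6, -0.20 to 0.11 for Fzd8, -0.15 to 0.01 for Smad6, -0.09 to 0.02 for Tgfb1, -0.12 to 0.03 for Tgfb2, -0.06 to 0.06 for Tgfbrap1, -0.01 to 0.16 for Tgfbr3 and -0.03 to 0.04 for Wnt8a. The cause was not tested. When pups were paired by nearest animal number (replicate block), 0 members passed and the median stayed at -0.068; paired arrays correlated in their deviations at -0.000595 to 0.156. In 3 of 5 pairs the wild-type array correlated highest with its own partner, and in 2 with another double knockout array, so whether these pairs are the littermates is not settled. The family medians and counts under other scalings and omissions were added after the values were seen. Signal near that of silent receptor genes limits what 11 of the 65 members can show.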
